A study of Mus musculus with 3 samples.

Results

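The 9 genes Itgae, Itga1, Itga4, Itgal, Itgb7, Itgb1, Itgb2, Rgs1 and Rgs2 were followed through T cells sorted from mouse melanoma. They were chosen by name, as integrins and Rgs genes known from tissue-resident T cells, and all 9 were among the 14811 genes measured. Their levels are given in the 4 classes that the authors gave to the cells, under 4 hashtag numbers, and in cells with and without the transcript of Foxp3.

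The cells came from B16F10 tumors, a transplantable mouse melanoma line, resected on day 11 from 10 mice whose tissue was pooled. Purified CD8 T cells with the congenic marker CD45.2, or CD4 T cells with CD45.1, had been injected 1 day after the tumor cells. Double-positive and single-positive cells of either origin were sorted, hashtagged and read in 1 droplet library of 5564 cells. The design addresses how T cells with both co-receptors relate to cells with CD4 or CD8 alone.

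The groups were 313 Cd8-identity Tdp cells, 2681 cells of the Cd8 class, 93 Cd4-identity Tdp cells and 2477 cells of the Cd4 class. Every Tdp cell held transcripts of both Cd4 and Cd8a, so deeper cells enter that class more easily. All groups were labelled untreated and shared the tumor line, the pool of mice and the library. The host strain, the ages of the mice and the way the classes were called are not given in the sources used here. The labels do not tie a hashtag number to a sorted population. With 1 pool there was no test across samples, and the 4 numbers are parts of that pool rather than replicates. All intervals are 95% intervals for counting error only.

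Integrins are pairs of an alpha and a beta chain that hold a cell to its neighbours and to the matrix. The chain from Itgae (CD103) pairs with that from Itgb7 and binds E-cadherin on epithelial cells, and it is induced by TGF-beta. The chain from Itga1 (CD49a) pairs with that from Itgb1 and binds collagen. The chain from Itga4 (CD49d) pairs with that from Itgb1 to bind VCAM, or with that from Itgb7 to bind MAdCAM of gut vessels. The chains from Itgal (CD11a) and Itgb2 (CD18) form LFA-1, which binds ICAM and is carried by most T cells. Rgs1 and Rgs2 encode proteins that switch off G protein signals of chemokine and other receptors, and Rgs1 is a known transcript of resident T cells.

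The promoters of Itga4 and Itgb1 are shown because these genes, whose products form a pair, ran in opposite directions between groups of CD8 cells below. Both sequences are RefSeq's for build GRCm38.p6, the assembly also called mm10, and run 5′ to 3′ from 250 bases before the start to 50 bases after it. Itga4 lies on the + strand at chr2:79255176-79255475 and Itgb1 on the + strand at chr8:128685404-128685703. Capitals mark matches, on either strand, to RUNX (TGTGGT), ETS (CCGGAA), AP-1 (TGANTCA), forkhead (TGTTTAC), the GC box (GGGCGG) and CRE (TGACGTCA).
Itga4: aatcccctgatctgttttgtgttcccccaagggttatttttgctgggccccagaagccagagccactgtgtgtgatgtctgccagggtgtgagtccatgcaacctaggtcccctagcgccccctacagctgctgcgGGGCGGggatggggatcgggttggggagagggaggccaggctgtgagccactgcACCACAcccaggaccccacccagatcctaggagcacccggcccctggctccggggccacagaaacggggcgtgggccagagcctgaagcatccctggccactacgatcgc
Itgb1: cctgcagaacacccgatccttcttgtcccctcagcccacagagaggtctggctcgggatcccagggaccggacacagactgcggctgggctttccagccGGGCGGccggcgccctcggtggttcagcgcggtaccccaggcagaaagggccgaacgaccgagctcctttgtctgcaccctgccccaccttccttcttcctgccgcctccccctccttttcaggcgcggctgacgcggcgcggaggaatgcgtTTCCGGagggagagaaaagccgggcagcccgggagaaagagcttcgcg
The Itga4 window held 1 GC box and 1 RUNX match on the - strand, and the Itgb1 window held 1 GC box and 1 ETS match on the - strand, with no overlap between matches. Of 32851 promoters in that table, 35.7% held the GC box, 16.8% RUNX, 14.9% ETS, 7.81% AP-1, 3.65% forkhead and 1.79% CRE. The Rgs2 window held 4 GC boxes, and the windows of Itga1 and Itgb7 held none of the 6 motifs. Rgs1 and Rgs2 lie on the same chromosome, 241 kb apart. Itgae, Itgal, Itgb2 and Rgs1 are named only.

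Levels were summed over the cells of a group and are given as CPM, the count scaled to a fixed total of UMIs (counts per 10 to the 6), where a UMI stands for 1 captured RNA molecule. The table held 26763131 UMIs, with a median of 3869 per cell and between 3478 and 4981 in the 4 classes. A gene was called higher or lower by a rule of size, which asks for 100 UMIs over both groups, a change of 1.5-fold or more and an interval that excludes equality. Pan T cell markers summed to 3955, 3572, 3902 and 3780 CPM in Cd8-identity Tdp, the Cd8 class, Cd4-identity Tdp and the Cd4 class. Macrophage or monocyte markers summed to 375, 1080, 78.6 and 494 CPM in the same order. Since levels are sums over cells, fewer cells with a transcript and less of it per cell cannot be told apart from the sums alone, so shares of cells are given beside them.

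Itgae was the member that set Foxp3-positive cells apart. Foxp3 encodes the transcription factor that defines regulatory T cells, and a cell was called Foxp3-positive from 1 UMI. In the Cd4 class, 555 Foxp3-positive cells held Itgae at 178 CPM (161 to 196) and 1922 Foxp3-zero cells at 11.8 CPM (9.58 to 14.4). That is 15.1-fold higher (12.1 to 19.0). An Itgae UMI was found in 40.4% of Foxp3-positive cells (36.2 to 44.6) and in 3.90% of Foxp3-zero cells (3.08 to 4.87). Thinned to 2000 UMIs per cell, the shares were 28.1% of 484 and 2.499% of 1761 cells. Median depth was nearly equal, 3345 UMIs in Foxp3-positive and 3501 in Foxp3-zero cells. As a floor for stray RNA, 1.22% of the 245 cells of a cluster led by Igfbp4 and Tmem108 had an Itgae UMI, at a median of 4386 UMIs.

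The direction was the same under every hashtag number. Foxp3-positive cells of the Cd4 class had 149, 202, 313 and 185 CPM of Itgae under numbers 1 to 4, and Foxp3-zero cells had 12.1, 7.67, 7.85 and 20.3 CPM. The lowest Foxp3-positive value lay far above the highest Foxp3-zero value. The ratios were 12.2, 26.4, 39.9 and 9.10, the third resting on 5 UMIs in the 157 Foxp3-zero cells of number 3.

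Most of the Itgae signal of the Cd4 class lay in cells with Foxp3 or in the cluster where such cells gather. Clustering was done without the 9 members, and the cluster with Foxp3, Tnfrsf9, Il2ra and Tnfrsf4 at its head is called regulatory T cell-like. Since Foxp3 itself helped to form that cluster, the following split is a description. Itgae was at 199 CPM in the 468 Foxp3-positive cells inside it and at 127 CPM in the 87 Foxp3-positive cells outside it. It was at 131 CPM in the 118 Foxp3-zero cells inside it and at 6.06 CPM in the 1804 Foxp3-zero cells outside it. That last group made up most of the class and held 9.16% of its Itgae UMIs. For Itgb7 the 4 levels were 793, 507, 761 and 457 CPM, and for Itga4 they were 84.2, 93.1, 65.4 and 215 CPM, in the same order.

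**Figure D1:**
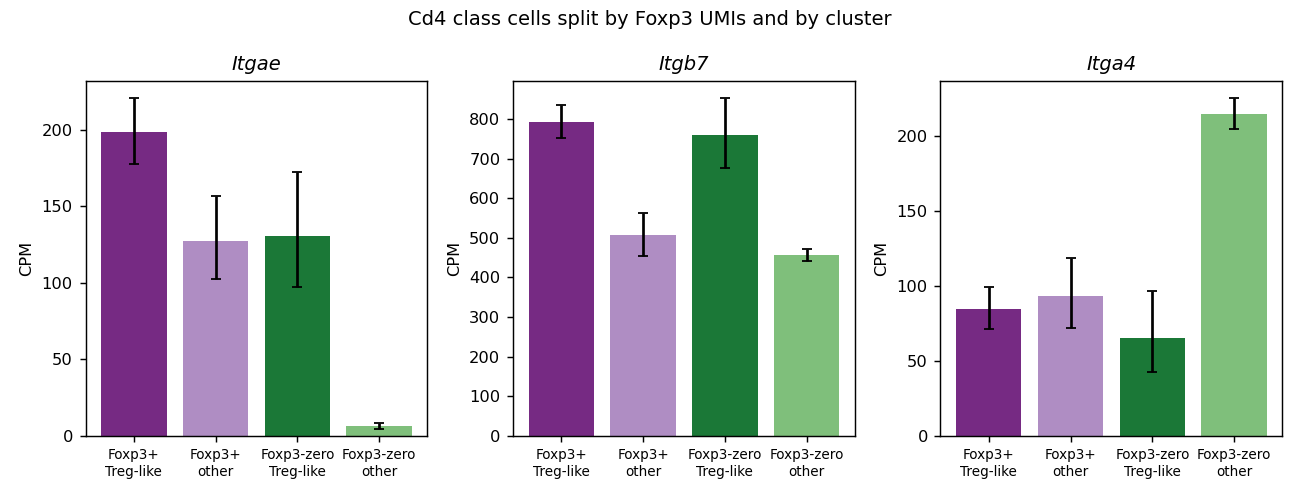
CPM of Itgae, Itgb7 and Itga4 in Cd4 class cells, split by Foxp3 UMIs and by membership of the regulatory T cell-like cluster (468, 87, 118 and 1804 cells from left to right); bars are group sums and error bars exact Poisson intervals for counting error. Itgae was lowest in Foxp3-zero cells outside the cluster (6.06 CPM), where Itga4 was highest (215 CPM).

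Of the 9 members, 3 were higher and 4 lower in Foxp3-positive than in Foxp3-zero cells of the Cd4 class. Over all 7805 genes tested, 16% passed the same rule, 8.3% higher and 7.71% lower. Itgb7, the partner chain of Itgae, was at 710 CPM in Foxp3-positive and 471 CPM in Foxp3-zero cells, 1.51-fold higher (1.42 to 1.59), which lies at the edge of the rule. Rgs2 was at 34.2 and 12.3 CPM, 2.79-fold higher (2.06 to 3.76). Rgs1 was at 370 CPM in Foxp3-positive and 248 CPM in Foxp3-zero cells, a ratio of 1.49 (1.38 to 1.62) that stayed just under the fold. The members that were higher thus include the CD103 pair.

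The collagen receptor chain and the chains of Itga4 and LFA-1 ran the other way. Itga1 had 16 UMIs, or 6.68 CPM, in Foxp3-positive cells and 30.0 CPM in Foxp3-zero cells, 4.49-fold lower. Itga4 was at 86.8 CPM in Foxp3-positive and 208 CPM in Foxp3-zero cells, 2.39-fold lower (2.07 to 2.78). Itgb1 was at 153 CPM in Foxp3-positive and 303 CPM in Foxp3-zero cells, 1.98-fold lower (1.78 to 2.22). Itgal was at 106 CPM in Foxp3-positive and 185 CPM in Foxp3-zero cells, 1.74-fold lower (1.52 to 1.99). Itgb2 was at 279 and 346 CPM, a ratio of 0.807 (0.741 to 0.879) inside the fold. Under numbers 1 to 4 Itga4 was at 104, 80.6, 54.2 and 49.5 CPM in Foxp3-positive cells and at 186, 220, 256 and 232 CPM in Foxp3-zero cells, with no overlap. All 9 genes kept their direction under all 4 hashtag numbers, which are parts of the same pool. How many of all genes did so was not counted.

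Marker lists of other cell types and of cycling also differed between these groups. B cell markers summed to 738 CPM in Foxp3-positive and 145 CPM in Foxp3-zero cells of the Cd4 class, with 1 of 3 past the fold and none at 0. Their sum was 818 CPM in the regulatory T cell-like cluster itself and between 100 and 315 CPM in the other clusters. Macrophage or monocyte markers summed to 25.5 CPM in the regulatory T cell-like cluster. The source of the B cell sum was not tested. Macrophage or monocyte markers summed to 612 and 460 CPM, with 4 of 10 higher and 1 lower, and cycling markers to 655 and 1320 CPM, with 8 of 8 lower. Dendritic cell markers summed to 548 CPM in Foxp3-positive and 211 CPM in Foxp3-zero cells, with 2 of 7 higher and none lower, and CD8 T cell markers to 217 and 76.4 CPM, with 2 of 2 higher. Without cells holding at least 2 UMIs of macrophage, B cell or melanoma markers, 220 of 555 Foxp3-positive and 1611 of 1922 Foxp3-zero cells remained. The filter thus took out a larger part of the Foxp3-positive cells, and B cell markers were among those it used. The log2 ratio of Itgae was then 3.63, against 3.44 over all cells, and that of Itgb7 0.74, against 0.59. Rgs1 then passed the fold, at 0.78 against 0.57, and Itgal no longer did, at -0.49 against -0.77. Itga1, Itga4 and Itgb1 stayed lower, at -1.35, -1.31 and -1.13. Rgs2 kept its direction, but its highest level among clusters lay in one led by Lyz2 (76.5 CPM), a macrophage gene. That filter did not use dendritic or CD8 T cell markers, and their part in these values was not tested.

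**Figure D2:**
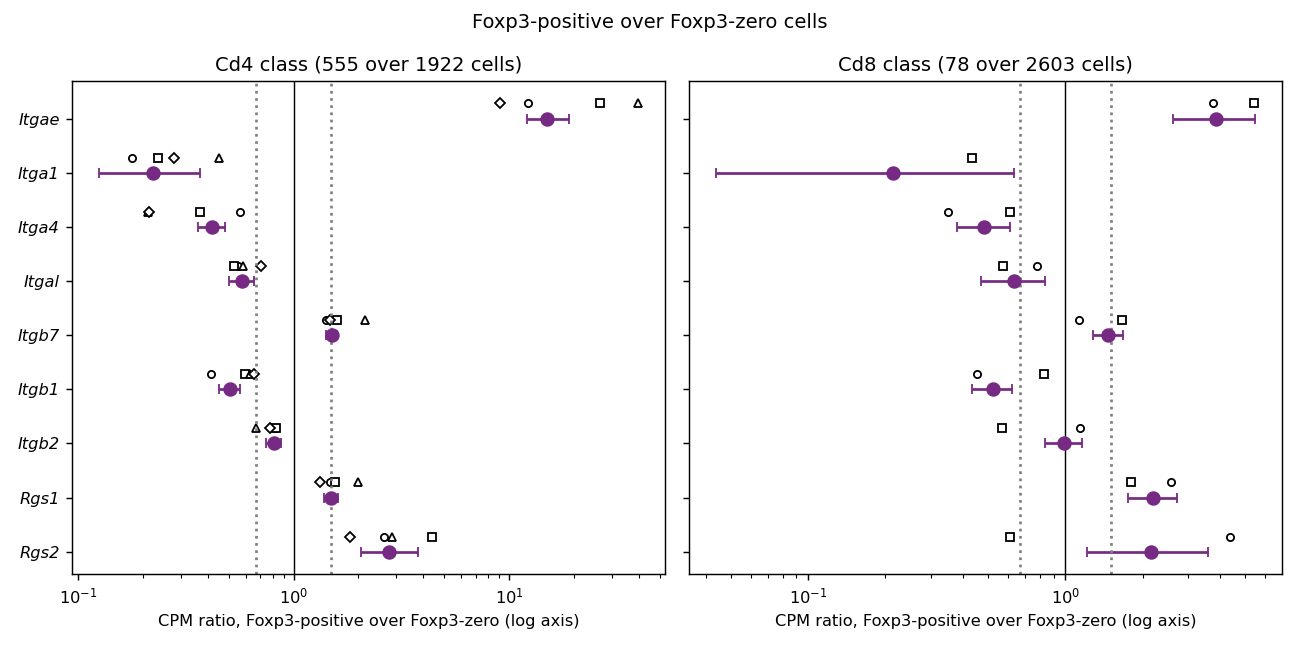
CPM ratio of Foxp3-positive over Foxp3-zero cells on a log axis, in the Cd4 class (left, 555 over 1922 cells) and the Cd8 class (right, 78 over 2603 cells); filled points are the pooled ratio with its exact binomial interval, open symbols hashtag numbers 1 (circle), 2 (square), 3 (triangle) and 4 (diamond) where both groups had at least 20 cells and the ratio was above 0, dotted lines the 1.5-fold rule. In the Cd4 class Itgae stood at 15.1, Itgb7, Rgs1 and Rgs2 lay right of 1, and Itga1, Itga4, Itgal, Itgb1 and Itgb2 left of 1 in all open symbols.

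In the Cd8 class the 78 Foxp3-positive cells also held more Itgae, at 71.0 CPM, against 18.5 CPM in 2603 Foxp3-zero cells, 3.84-fold higher (2.61 to 5.49). The ratio was 3.75 under number 1 and 5.43 under number 2, and numbers 3 and 4 had fewer than 20 Foxp3-positive cells. An Itgae UMI was found in 25.6% of Foxp3-positive and 5.11% of Foxp3-zero cells. These shares are not at equal depth, since the median was 5268.5 UMIs in Foxp3-positive and 4147 in Foxp3-zero cells. Rgs1 was 2.19-fold higher and Rgs2 2.16-fold higher, while Itga4 was 2.07-fold, Itgb1 1.92-fold and Itgal 1.58-fold lower. Itga1 had 3 UMIs in Foxp3-positive and 370 in Foxp3-zero cells, a ratio of 0.214 (0.0440 to 0.631). In all, 7 of 9 members were called, 3 higher and 4 lower, beside 14.2% of 8368 genes tested, 9.69% higher and 4.51% lower.

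These Foxp3-positive cells of the Cd8 class were a mixed group. Macrophage or monocyte markers summed to 2237 CPM in them and 1036 CPM in Foxp3-zero cells, dendritic cell markers to 2730 and 707 CPM, and pan T cell markers to 2395 and 3616 CPM. With the clusters led by Lyz2 and MHC class II genes, by NK genes and by low UMI totals left out, an alternative chosen after seeing the data, 44 Foxp3-positive and 2271 Foxp3-zero cells remained. Of 9 members 3 then passed the rule, Itgae and Itgb7 higher and Itgb1 lower. The log2 ratio of Itgae was then 2.23, against 1.69 over all cells, that of Rgs1 0.53, against 1.09, and that of Rgs2 -0.43, against 0.90. Over all cells the Rgs2 value rested on 16 UMIs in Foxp3-positive cells, 14 of them under hashtag number 1, and it was -0.79 without that number and 1.41 without number 4. Of the 4 lower members, 3 lost the call. In T cell clusters the log2 ratio of Itga1 was -0.97, against -1.59 over all cells, that of Itga4 -0.51, against -1.02, that of Itgal -0.55, against -0.64, and that of Itgb1 -0.84, against -0.93. In marker-free cells, filtered as in the Cd4 class, 34 Foxp3-positive and 1689 Foxp3-zero cells remained, and Itga1, Itga4, Itgal and Itgb1 were at -0.04, -0.49, -0.25 and -0.43, none of them called. Itgae was at 2.00 there, Rgs1 at 1.53 and Itgb7 at 1.04, all 3 called.

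Few Foxp3-positive cells were Tdp. In Cd4-identity Tdp, Itgae had 26 UMIs (207 CPM) in 18 Foxp3-positive cells and 9 UMIs (20.1 CPM) in 75 Foxp3-zero cells. In Cd8-identity Tdp it had 6 UMIs (40.7 CPM) in 14 Foxp3-positive cells and 21 UMIs (12.1 CPM) in 299 Foxp3-zero cells. The levels in Foxp3-positive cells were the higher ones in each of the 4 classes.

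Between the single classes, 5 of 9 members were called, 2 higher and 3 lower, beside 11.8% of 9454 genes tested, 6.49% higher and 5.27% lower. Itgb1 was at 489 CPM in the Cd8 class and 269 CPM in the Cd4 class, 1.82-fold higher (1.74 to 1.90), with a UMI in 68.7% and 41.0% of cells. Itga4 was at 300 and 181 CPM, 1.66-fold higher (1.57 to 1.75). Both chains of the VCAM receptor were thus higher in the Cd8 class when all cells were counted. Rgs1 was at 90.7 CPM in the Cd8 class and 275 CPM in the Cd4 class, 3.03-fold lower (2.83 to 3.24), and Itgb7 was at 316 and 525 CPM, 1.66-fold lower (1.60 to 1.73). Under numbers 1 to 4 Rgs1 was at 102, 92.4, 81.7 and 94.8 CPM in the Cd8 class and at 277, 280, 219 and 286 CPM in the Cd4 class, so every Cd8 class value lay below every Cd4 class value. Itgb1 was at 403, 495, 517 and 499 CPM in the Cd8 class and at 272, 269, 301 and 246 CPM in the Cd4 class, also without overlap. The directions of Itga4 and Itgb7 were the same under all 4 numbers too. How many of all genes kept apart in this way was not counted. The Cd8 class also held 1080 CPM of macrophage or monocyte markers, against 494 CPM in the Cd4 class, and in T cell clusters alone the log2 ratios were 0.96 for Itgb1, 0.79 for Itga4, -0.70 for Itgb7 and -1.66 for Rgs1.

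The direction of Itgae between the single classes turned when Foxp3-positive cells were left out. It was at 20.4 CPM in the Cd8 class and 49.0 CPM in the Cd4 class, 2.40-fold lower (2.07 to 2.79). Foxp3-positive cells made up 2.91% of the Cd8 class and 22.4% of the Cd4 class. Among Foxp3-zero cells alone, an alternative chosen after seeing the data, Itgae was at 18.5 CPM in the Cd8 class and 11.8 CPM in the Cd4 class, and its log2 ratio was 0.48, against -1.09 over all cells. Itgb1, Itga4, Itgb7 and Rgs1 kept their directions without Foxp3-positive cells, with log2 ratios of 0.71, 0.55, -0.59 and -1.46, but Itga4 was then under the fold. In marker-free cells the log2 ratio of Itgae was -0.32, also under the fold. In T cell clusters alone, with Foxp3-positive cells kept, that of Itgae was -1.27. A part of the Itgae UMIs of the Cd8 class lay in the clusters led by Lyz2 and by Cd209a, described below. Foxp3-zero cells of T cell clusters alone were not compared, so the turn is not shown for them. Itga1, Itgal, Itgb2 and Rgs2 lay inside the fold, with ratios of 1.11, 0.964, 0.960 and 0.912.

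**Figure D3:**
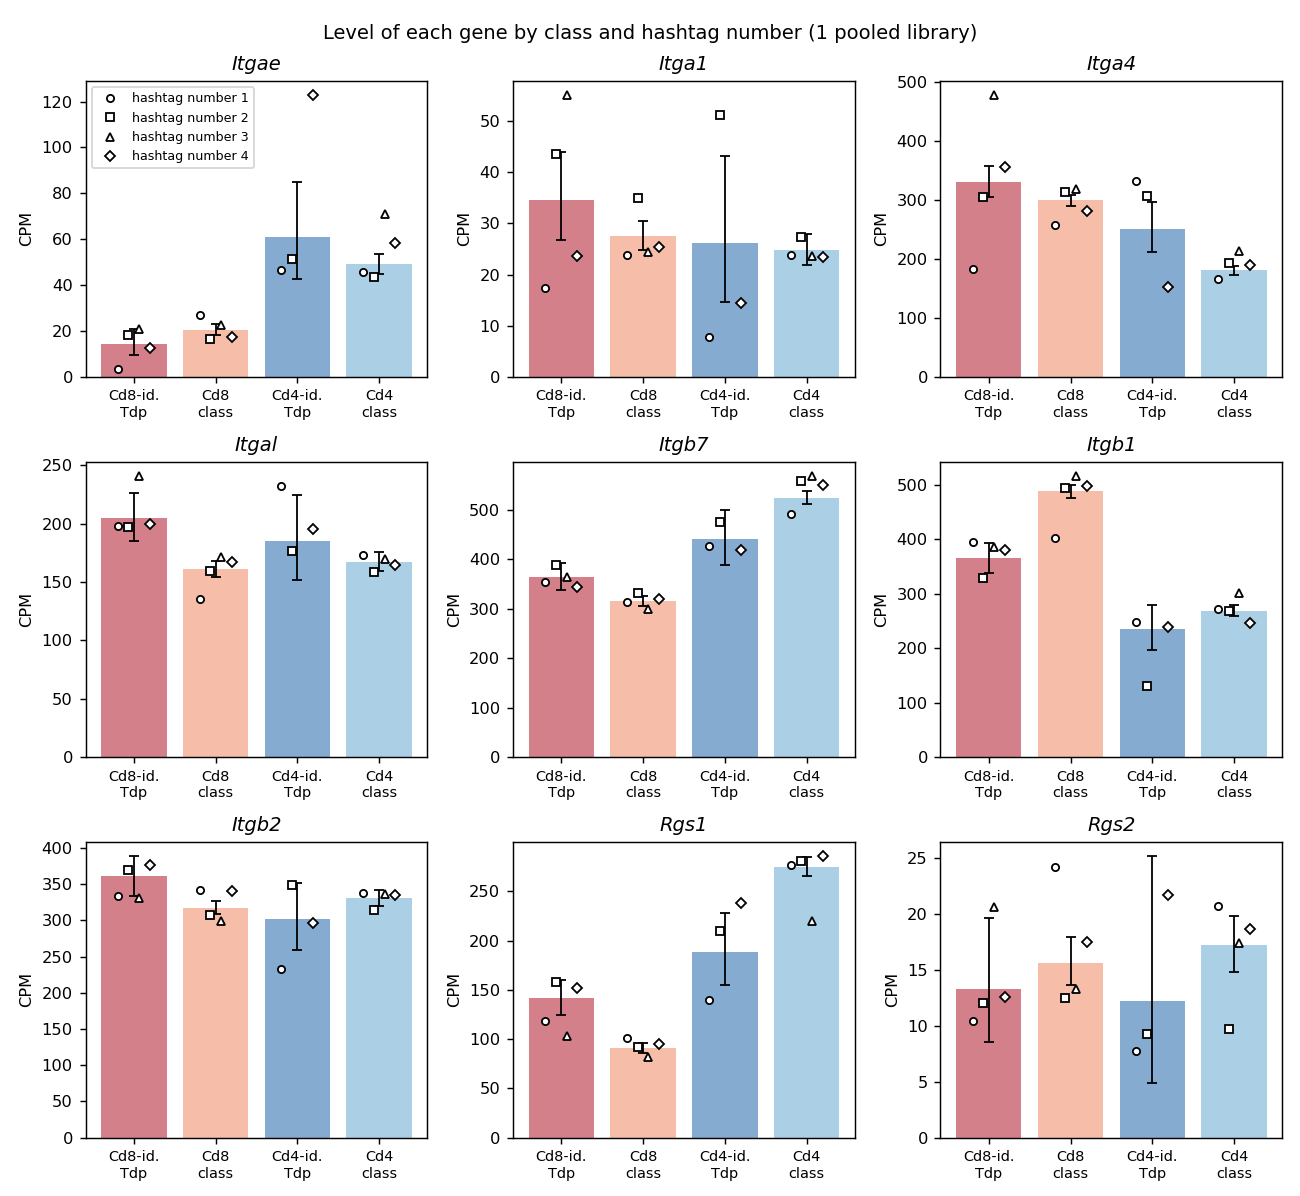
CPM of each gene in Cd8-identity Tdp, the Cd8 class, Cd4-identity Tdp and the Cd4 class; bars are sums over all cells of a class with exact Poisson intervals, and open symbols are hashtag numbers with at least 20 cells of the class. Rgs1 and Itgb7 were lowest in the Cd8 class (90.7 and 316 CPM) and highest in the Cd4 class (275 and 525 CPM), and Itgb1 was highest in the Cd8 class (489 CPM).

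The order of the classes can be read from the intervals. For Itgae it ran Cd4-identity Tdp (61.2 CPM), Cd4 class (49.0), Cd8 class (20.4) and Cd8-identity Tdp (14.4), where the first 2 overlapped, as did the last 2. For Rgs1 it ran Cd4 class (275 CPM), Cd4-identity Tdp (189), Cd8-identity Tdp (141) and Cd8 class (90.7). The intervals of the Rgs1 levels in the Tdp classes, 125 to 159 and 155 to 228 CPM, met at their ends and the others were apart. For Itga4 it ran Cd8-identity Tdp (331 CPM), Cd8 class (300), Cd4-identity Tdp (252) and Cd4 class (181), with overlap between the first 2 and between the Cd8 class and Cd4-identity Tdp. Itga1 was between 24.8 and 34.6 CPM and Rgs2 between 12.2 and 17.2 CPM, and all intervals of either gene overlapped.

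Among Cd8-identity cells, Rgs1 passed the rule between Tdp and single-class cells by a narrow margin. It was at 141 CPM in Cd8-identity Tdp and 90.7 CPM in the Cd8 class, 1.56-fold higher (1.36 to 1.78), and higher under all 4 numbers, with ratios of 1.16, 1.71, 1.26 and 1.61. It was the 1 member of 9 called, beside 6.17% of 8627 genes, 1.91% higher and 4.25% lower, so the count was near that over all genes. Itgb1 was at 366 and 489 CPM, 1.34-fold lower (1.24 to 1.45), and Itgal at 205 and 161 CPM, a ratio of 1.27 (1.14 to 1.41). The ratios of the other 6 lay between 0.703 and 1.25. Counted per cell rather than per UMI, as a mean of per-cell CPM, the log2 ratio of Rgs1 was 0.30, against 0.61 from the sums, which is under the fold. From the sums it was 0.53 in marker-free cells, 0.56 without cycling cells and 0.53 without hashtag number 2, each also under the fold. Itgae was at -0.89 in marker-free cells, against -0.39 over all cells, and passed the rule there.

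Among Cd4-identity cells, 0 of 9 members were called, beside 5.68% of 7916 genes, 2.13% higher and 3.55% lower. Rgs1 was at 189 CPM in Cd4-identity Tdp and 275 CPM in the Cd4 class, 1.46-fold lower (1.20 to 1.78). Itga4 was at 252 and 181 CPM, a ratio of 1.39 (1.17 to 1.65), but its ratios were 2.01, 1.58 and 0.798 under numbers 1, 2 and 4. Only 93 cells and 572339 UMIs stood behind the Tdp values. Cells with several Trbv genes, kept here as possible doublets, made up 38.7% of Cd4-identity Tdp and 9.29% of the Cd4 class. Among Cd8-identity cells these shares were 19.2% in Tdp and 12.8% in the Cd8 class. When they were left out, 57 Cd4-identity Tdp cells remained. The log2 ratio of Itgae was then -0.29, against 0.29, and 2 members passed the fold, against 0. Whether such cells were doublets was not tested. Regulatory T cell markers summed to 1754 CPM in Cd4-identity Tdp and 2469 CPM in the Cd4 class. Foxp3-positive cells were 19.4% of Cd4-identity Tdp and 22.4% of the Cd4 class, and without them the log2 ratio of Rgs1 was -0.22, against -0.53.

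Set against each other, the Tdp classes could be compared for 6 members with 100 UMIs or more. Itgb1 was called, at 366 CPM in Cd8-identity Tdp and 236 CPM in Cd4-identity Tdp, 1.55-fold higher (1.29 to 1.88), beside 6.6% of 3530 genes, 3.88% higher and 2.72% lower. Itgae had 27 UMIs (14.4 CPM) in Cd8-identity Tdp and 35 UMIs (61.2 CPM) in Cd4-identity Tdp, 4.26-fold lower (2.51 to 7.32), with Foxp3-positive cells at 4.47% and 19.4%. Without those cells the log2 ratio of Itgae was -0.55, against -1.77. That of Itgb1 was 0.36 without hashtag number 2, against 0.62, and no longer called.

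Hashtag numbers were also compared within a class. In the Cd8 class, 0 of 9 members were called for number 4 against 3 and for number 2 against 3, beside 5.59% of genes (4.73% higher, 0.858% lower) and 3.61% (3.15% higher, 0.46% lower). With 9 members, a count of 0 lies near these shares. Macrophage or monocyte markers summed to 1718 CPM under number 4, 1114 CPM under number 2 and 258 CPM under number 3, with 8 of 10 higher in either comparison. Itga1 was at 35.0 CPM under number 2 and 24.4 CPM under number 3, a ratio of 1.43 (1.11 to 1.86). In the Cd4 class, Rgs2 was called for number 2 against 1, at 9.72 and 20.7 CPM, 2.13-fold lower (1.40 to 3.36), beside 3.75% of genes (0.546% higher, 3.21% lower). Macrophage or monocyte markers summed to 165 CPM under number 2 and 754 CPM under number 1, with 8 of 10 lower, and dendritic cell markers to 60.0 and 387 CPM, with 2 of 7 lower. The log2 ratio of Rgs2 was -0.81 over all cells. It was -0.43 in marker-free cells, -0.32 in T cell clusters and -0.11 in thinned cells. It was -0.86 without Foxp3-positive cells, and Rgs2 was called in none of these 4 settings. In the last of them the change was no smaller than over all cells. The Foxp3-zero cells of all 4 hashtag numbers together held 102 Rgs2 UMIs, close to the UMI minimum of the rule. The lost call there thus does not show a smaller change. No member was called for number 4 against 1, beside 2.71% (0.919% higher, 1.79% lower). Across these 4 comparisons the ratios of Itgb1 lay between 0.905 and 0.988.

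At the finer of 2 settings, clustering gave 14 clusters, of which 4 are described for the Cd8 class. Among these 4, Itgb1 and Itga4 were highest in different ones. A cluster led by Ccl5, Wdr95, Gzmk and Cx3cr1 (744 Cd8 class cells) had Itga4 at 522 CPM, Itgb1 at 436 CPM, Itga1 at 50.8 CPM and Itgae at 10.3 CPM. A cluster led by Dapl1, Cd7, Hrh4 and Ccr10 (479 cells) had Itga4 at 143 CPM, Itgb1 at 1053 CPM, Itga1 at 26.3 CPM and Itgae at 43.6 CPM. Gzmk and Cx3cr1 are known from effector cells, and Ccr10 encodes a receptor for chemokines of skin and mucosa. The cluster led by Dapl1, Cd7 and Hrh4 held 31.9% of the Itgae UMIs and 32.1% of the Itgb1 UMIs of the class, but 7.10% of its Itga4 UMIs.

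The other 2 clusters showed that low Itga4 and high Itgb1 did not always go together. A cluster led by Dapl1, Aff3, Tcf7 and Slamf6 (233 Cd8 class cells), where Tcf7 is known from memory-like cells, was high in both, with Itga4 at 471 CPM and Itgb1 at 710 CPM. The cluster led by Igfbp4 and Tmem108 (232 cells) had 0.910 CPM of Itgae, 3.64 CPM of Itga1 and 60.0 CPM of Itga4, each below the other 3 clusters. Outside these 4, the 106 Cd8 class cells of a cluster of low UMI totals had both at high levels, with Itga4 at 1300.3 CPM and Itgb1 at 985 CPM.

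The Cd4 class was split in another way. A cluster led by Il17re, Tmem176b and Serpinb1a (742 Cd4 class cells), where Il17re encodes a chain of an interleukin-17 receptor, had Itgb1 at 377 CPM, Itgb7 at 646 CPM, Itga1 at 19.1 CPM and Rgs1 at 138.2 CPM. A cluster led by P2rx7, Asb2, Zfp683 and Cxcr6 (384 cells) had Itgb1 at 172 CPM, Itgb7 at 418 CPM, Itga1 at 66.3 CPM and Rgs1 at 354 CPM. Zfp683 encodes Hobit, a factor of tissue-resident T cells, and Cxcr6 a receptor found on them. That cluster held 40.8% of the Itga1 UMIs of the Cd4 class but 2.86% of its Itgae UMIs. The regulatory T cell-like cluster (587 cells at this setting) had Itga1 at 5.81 CPM, Itgae at 188 CPM, Itgb7 at 794 CPM and Rgs1 at 412 CPM. Among these 3 clusters Itga1 and Itgae were thus highest in different ones. The 48 Cd4 class cells of the cluster of low UMI totals had both, with 94.5 CPM of Itga1 from 7 UMIs and 257 CPM of Itgae from 19 UMIs.

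**Figure D4:**
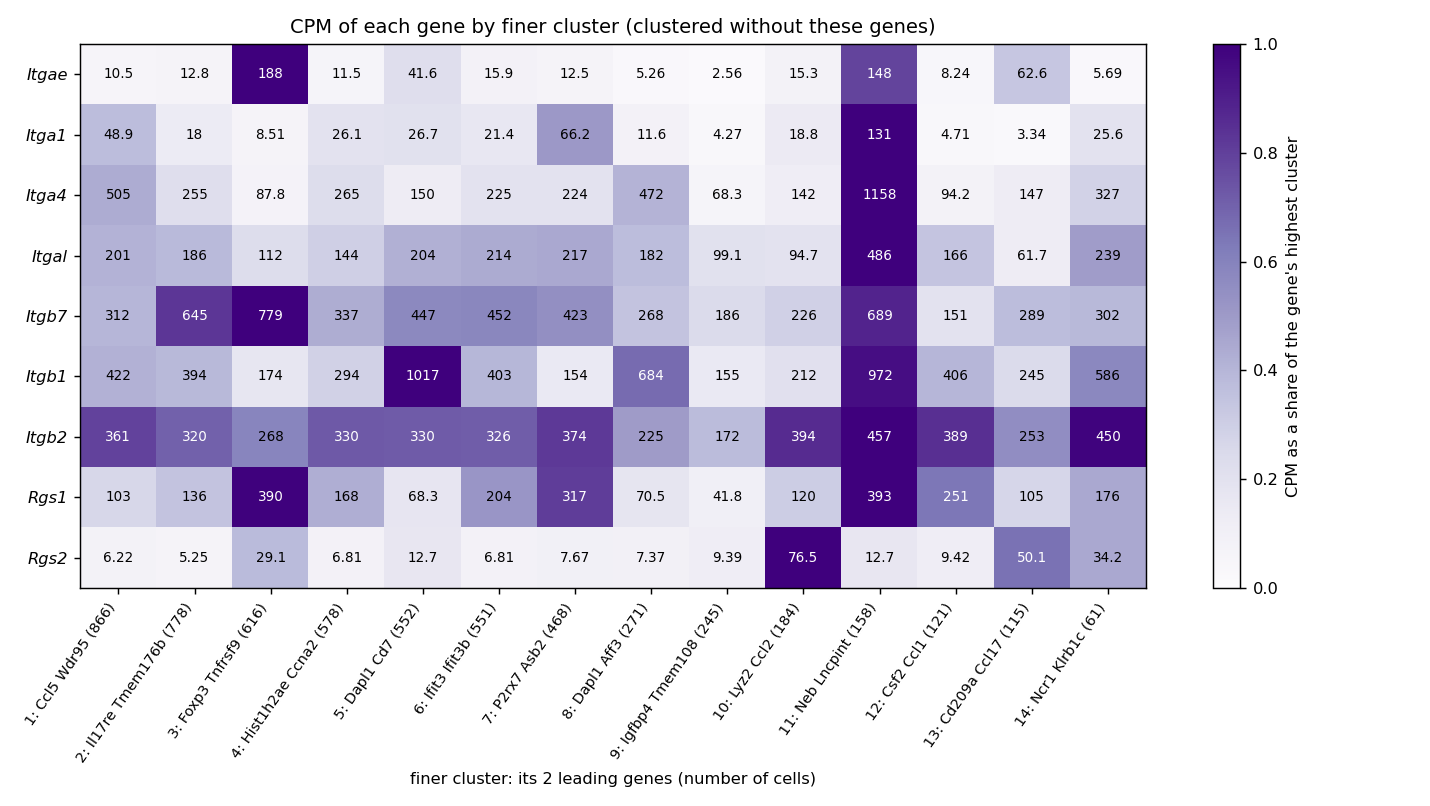
CPM of each gene (rows, value printed in each cell) in the 14 finer clusters of all 5564 cells (columns, named by their 2 leading genes); colour is the CPM as a share of that gene's highest cluster. Itgae was highest in the cluster led by Foxp3 (188 CPM), Itgb1 in that led by Dapl1, Cd7 and Hrh4 (1017 CPM) and Rgs2 in that led by Lyz2 (76.5 CPM); the cluster led by Neb, with a median of 899 UMIs per cell, was the highest for Itga1, Itga4, Itgal, Itgb2 and Rgs1.

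Some signal lay in clusters that were not T cell clusters by their leading genes. Rgs2 was at 76.5 CPM in a cluster led by Lyz2, Ccl2 and Ccl6 and 50.1 CPM in one led by Cd209a, Ccl17 and Ccl22, against 29.1 CPM in the regulatory T cell-like cluster and between 5.25 and 34.2 CPM in all the others. Among Cd8 class cells those 2 clusters held 36.8% and 20.3% of all Rgs2 UMIs from 122 and 89 cells, and 5.07% and 19.2% of all Itgae UMIs. The cluster of low UMI totals, led by Neb, Lncpint and Kcnq1ot1 (158 cells), had 1158 CPM of Itga4, 486 CPM of Itgal and 148 CPM of Itgae from 35 UMIs. Its part in the class values was not tested beyond leaving it out with the others.

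Transcripts of known partner chains were set beside each other in single cells thinned to 2000 UMIs. In the Cd4 class an Itgb7 UMI was found in 80.0% (73.4 to 85.6) of 180 cells with Itgae and in 61.9% (59.8 to 64.0) of 2065 cells without it. Within Foxp3-positive cells these shares were 80.9% (73.3 to 87.1) and 76.4% (71.6 to 80.8), and within Foxp3-zero cells 77.3% (62.2 to 88.5) and 59.0% (56.6 to 61.3). Among Cd8 class cells they were 57.3% (45.4 to 68.7) of 75 and 44.0% (42.1 to 46.0) of 2425. Both transcripts of the CD103 pair were found in 22.7% of Foxp3-positive and 1.93% of Foxp3-zero cells of the Cd4 class.

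Itga4 and Itgb1 were found together less often than apart in the Cd4 class. An Itgb1 UMI was found in 23.2% (19.8 to 26.8) of 583 cells with Itga4 and in 33.1% (30.8 to 35.4) of 1662 cells without it. In Foxp3-positive cells the shares were equal, 25.0% each, and in Foxp3-zero cells they were 22.9% (19.4 to 26.8) and 35.9% (33.2 to 38.6). Among Cd8 class cells an Itgb1 UMI was in 54.2% (50.9 to 57.5) of cells with Itga4 and 50.6% (48.1 to 53.0) of those without it. Itgb2 was found in 51.6% of Cd8 class cells with Itgal and 41.5% of those without it, and in 50.4% and 44.1% in the Cd4 class. Itgb7 was found in 44.1% of Cd8 class cells with Itga4 and 44.6% of those without it. Every cell counted here had the same depth, and a transcript missed at that depth may still be present.

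Over the 15 groups of class by hashtag number with at least 20 cells, some genes followed the members closely, as a description over groups that share 1 library and 2 lineages. Among 7537 genes the 3 with the highest Pearson correlation with Itgae were Hspa4l (0.91), Ralgps2 (0.88) and Cyb5a (0.88). For Itgb7 they were Actn2 (0.95), Ltb (0.94) and Znrf1 (0.94), for Rgs1 Spcs2 (0.95), Susd3 (0.93) and Serinc3 (0.93), and for Itgb1 Zbtb32 (0.91), St6galnac4 (0.89) and Klrc1 (0.86). For Itga4 they were Nsmaf, Serpinb6b and Arl5c (0.88 each), for Itga1 Faf1, Arl2bp and Prmt9 (0.89 to 0.90), for Itgal Mettl15, Glcci1 and Cdkn2aipnl (0.88 to 0.90), for Itgb2 Ash2l, Actl6a and Arf4 (0.89 to 0.90), and for Rgs2 Ring1, Tmem120a and Fkbp2 (0.80 to 0.82). Among the members themselves Itgb7 and Rgs1 ran together (0.91), and Itgb1 ran against Rgs1 (-0.76) and Itgb7 (-0.73).

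Other genes of tissue residency did not run one way with Itgae. Of 13 residency transcripts measured in the Foxp3 comparison of the Cd4 class, 3 were higher and 3 lower, with a median log2 ratio of 0.12, against -0.015 over all genes. Over all genes 8.3% were higher and 7.71% lower. The list gave Hobit by its human symbol, so the mouse gene Zfp683 was left out of the residency counts here and below. Nr4a1, an early response gene of T cell receptor signals, was at 59.7 CPM in Foxp3-positive and 14.9 CPM in Foxp3-zero cells, a ratio of 3.996, and Prdm1, which encodes Blimp-1, was 2.57-fold higher. Cxcr6 was at 91.4 and 681 CPM, 7.45-fold lower, and Xcl1, which encodes a chemokine for dendritic cells, was 12.1-fold lower. Of 6 genes of egress and circulation tested 2 were higher, among them Ccr7, a chemokine receptor of naive and central memory T cells, at 35.1 and 12.8 CPM (2.75-fold).

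Of 11 TGF-beta pathway genes tested, 4 were higher and 1 lower in Foxp3-positive cells of the Cd4 class, with a median of 0.40. Over all genes 8.3% were higher and 7.71% lower there, which also applies to the lists that follow. Lrrc32, whose product GARP holds latent TGF-beta on regulatory T cells and which was also on the marker list of those cells, was at 39.6 CPM in Foxp3-positive and 1.69 CPM in Foxp3-zero cells, 23.5-fold higher. Tgif1, a repressor in the pathway, was 2.34-fold higher and Tgfbr2, a chain of the TGF-beta receptor, 1.91-fold lower (70.9 and 136 CPM). Of 4 other integrin alpha genes tested Itgav (2.33-fold) and Itgam (1.73-fold) were higher, and of 4 integrin ligand genes Icam1 (2.10-fold) and Fn1 (3.23-fold). Itgam and Fn1 are also known from macrophages, whose markers were higher in these cells too. Of 15 genes of integrin activation and linkage 1 was called, Rasgrp2, an activator of the integrin switch Rap, 1.70-fold lower, and of 5 other Rgs genes 1, Rgs16, 1.62-fold lower.

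The same lists split the single classes. Of 13 residency transcripts 2 were higher and 6 lower in the Cd8 class than in the Cd4 class, with a median of -0.38, against -0.018 over all genes. Over all genes 6.49% were higher and 5.27% lower. P2rx7 was at 5.47 CPM in the Cd8 class and 31.5 CPM in the Cd4 class, 5.76-fold lower, and Ccr8 was 4.49-fold lower, while Xcl1 was 3.86-fold and Nr4a2 3.09-fold higher. Of 7 egress genes 4 were higher, among them Cx3cr1 (7.14-fold) and Ccr7 (3.66-fold). Of 6 other Rgs genes 3 were lower, including Rgs16 (1.95-fold) and Rgs14 (1.58-fold). Of 16 integrin activation genes Rasgrp2 (2.03-fold) and Zyx (1.86-fold), which encodes an adaptor at adhesion sites, were higher and Rasgrp1 1.61-fold lower.

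In Cd8-identity Tdp against the Cd8 class, 2 of 13 residency transcripts were higher and 2 lower, beside 1.91% and 4.25% of all genes. P2rx7 was 2.62-fold and Cxcr6 1.57-fold higher, at 535 CPM in Tdp and 341 CPM in the Cd8 class, and Xcl1 was 3.81-fold and Nr4a1 2.09-fold lower. Ccr7 was 1.68-fold lower there. In Cd4-identity Tdp against the Cd4 class Ccr7 was 1.87-fold higher, from 19 UMIs in Tdp cells, and of 13 residency transcripts none was higher and 2 were lower, Xcl1 (3.45-fold) and Ccr8 (2.26-fold), from 4 and 11 UMIs in Tdp cells. Over all genes 2.13% were higher and 3.55% lower there.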

How the data were processed

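The deposited table held raw UMI counts per gene and cell from 1 pooled 5′ droplet library, made by the authors with Cell Ranger 3.1.0, Seurat 3.2.3 and mm10 among the tools and builds named, without roles, in the submitters' processing notes. The deposited annotation gave each cell a number from 1 to 4, taken here as its hashtag, an identity and a class. Counts were summed per group and scaled to CPM without 117 receptor and immunoglobulin genes (0.325% of UMIs). Levels carry exact Poisson intervals, ratios exact conditional binomial ones and shares Clopper-Pearson ones, all at 95%. Log2 ratios used a pseudocount of 5 CPM. All genes were tested by the same rule, and that rule alone was tried on simulated group sums. Of genes raised and lowered 2-fold, it found 89% and 66% in Cd4-identity Tdp against the Cd4 class. For Foxp3 in the Cd8 class it found 83% and 62%, and in every other comparison at least 89% of either. Clusters (scanpy 1.11.5, Leiden, resolutions 0.5 and 1.0) left out the members, and possible doublets were kept except in a named alternative. All 9 members are named in each comparison, the 2 highest and 2 lowest called genes of each list, and 3 genes of like pattern per member. Members and lists were chosen with earlier results of these data known. Alternatives covered depth, markers, doublets, scaling (edgeR 4.0.16 TMM), pseudocounts and UMI minimums. Python 3.11.15, numpy 2.4.6, scipy 1.17.1, igraph 0.11.9 and R 4.3.3 were used. The T cell receptor data were not used here.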

Additional observations from a re-analysis of the deposited data

Results flagged for a closer look

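For 2 members the ratio of Tdp over single-class cells pointed in opposite directions in the 2 identities under every hashtag number with at least 20 cells. That of Rgs1 was 1.56 among Cd8-identity cells and 0.686 among Cd4-identity cells, and that of Itgb7 was 1.15 and 0.842. These differences between identities were not tested, since there was 1 library. How many of all genes differed in this way was not counted.

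A sparse table of antibody counts on the same cells was not part of the comparisons above, and the labels do not state a staining. Over all 5564 cells it held 13 counts for CD103, the product of Itgae, 31 for CD49a, 109 for CD49d, 81 for CD11a and 168 for an integrin whose Greek letter was lost in the file and which is taken as beta 7. The 3 isotype controls held 2, 3 and 2 counts. The whole table held 4315 counts. CD103 counts were in 7 of 555 Foxp3-positive (1.26%, 0.509 to 2.58) and 6 of 1922 Foxp3-zero cells (0.312%, 0.115 to 0.678) of the Cd4 class, and in no other class. The integrin taken as beta 7 was in 4.50% (2.94 to 6.58) of Foxp3-positive and 2.13% (1.54 to 2.88) of Foxp3-zero cells, and CD49d in 0.541% (0.112 to 1.57) and 1.77% (1.23 to 2.46). CD11a was in 1.44% and 1.25%, with overlap, while Itgal RNA was lower in Foxp3-positive cells. Between classes, the integrin taken as beta 7 was in 3.096% of Cd8 class and 2.66% of Cd4 class cells, with overlap. Itgb7 RNA was lower in the Cd8 class. CD49d was in 2.20% and 1.49%, the direction of Itga4 RNA. Foxp3-positive cells held 563 counts of all antibodies in 555 cells and Foxp3-zero cells 1425 in 1922, which is fewer per cell. The shares were not adjusted for this.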

How the results depend on the processing

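Rules of size replaced tests, and depth limits the Tdp classes and the Foxp3-positive Cd8 class most. No paired analysis was possible because there was 1 library and the hashtag numbers are not replicates. Alternatives without Foxp3-positive cells and in T cell clusters only were chosen after seeing the data. Marker-free cells had under 2 UMIs of macrophage, B cell and melanoma markers. The causes of the shifts were not tested, except that a higher UMI minimum tests fewer genes.

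The log2 ratio of Itgae in the Cd8 class against the Cd4 class (-1.09) turned to 0.48 without Foxp3-positive cells and was -0.32 in marker-free cells, -0.77 with a pseudocount of 20 CPM and -1.27 in T cell clusters. In Cd8-identity Tdp against the Cd8 class (-0.39) it was -0.89 in marker-free cells. In Cd4-identity Tdp against the Cd4 class (0.29) it turned to -0.29 without several Trbv genes. Between the Tdp classes (-1.77) it was -2.43 without cycling cells and -0.55 without Foxp3-positive cells. For Foxp3-positive against Foxp3-zero cells it was 3.804 and 2.64 with pseudocounts of 1 and 20 CPM in the Cd4 class (3.44), and 2.23 in T cell clusters in the Cd8 class (1.69).

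The log2 ratio of Rgs1 in Cd8-identity Tdp against the Cd8 class (0.61) was 0.30 as a mean of per-cell CPM. In Cd4-identity Tdp (-0.53) it was -0.96 without cycling cells, -0.26 in marker-free cells and -0.22 without Foxp3-positive cells. In the Cd8 class against the Cd4 class (-1.55) it was -1.46, -1.72, -1.41, -1.66 and -1.36 in marker-free cells, thinned, with a pseudocount of 20 CPM, in T cell clusters and as a mean of per-cell CPM. For Foxp3 in the Cd4 class (0.57) it was 0.78 in marker-free cells and 0.69 thinned. For Foxp3 in the Cd8 class (1.09) it was 1.53, 0.28, 0.53 and 2.17 in marker-free cells, thinned, in T cell clusters and as a mean of per-cell CPM. Rgs2 in that comparison (0.90) turned to -0.43 in T cell clusters and ranged from -0.79, without hashtag number 1, to 1.41, without number 4.

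With each hashtag number left out in turn, Itgae ranged from -0.64 to -0.18 and Rgs1 from 0.53 to 0.68 in Cd8-identity Tdp against the Cd8 class. They ranged from -0.17 to 0.53 and from -0.64 to -0.42 in Cd4-identity Tdp, and from -2.06 to -1.20 and -0.47 to -0.34 between the Tdp classes. They ranged from -1.25 to -0.996 and -1.57 to -1.50 in the Cd8 class against the Cd4 class. For Foxp3 they ranged from 3.25 to 3.73 and 0.54 to 0.60 in the Cd4 class, and from 1.55 to 1.92 and 0.93 to 1.18 in the Cd8 class. The members past the fold then numbered 1, 0 to 2, 1 to 2, 5, 6 to 8 and 7 in these 6 comparisons.

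The members past the fold numbered 2 in marker-free cells and 3 without several Trbv genes in Cd8-identity Tdp (1), and 1 without cycling cells and 2 without several Trbv genes in Cd4-identity Tdp (0). Between the Tdp classes (1) they numbered 2 in marker-free cells, without several Trbv genes, thinned, from 20 UMIs and without Foxp3-positive cells. For Foxp3 in the Cd8 class (7) they numbered 3 in marker-free cells, thinned and in T cell clusters, and 4 from 500 UMIs and with matched Foxp3-zero cells. Within the Cd8 class they numbered 1 without several Trbv genes for hashtag number 4 against 3 (0), and for 2 against 3 (0) 2 without cycling cells and 1 in marker-free cells, without several Trbv genes, without Foxp3-positive cells and in T cell clusters. For number 2 against 1 in the Cd4 class (1) they numbered 0 in marker-free cells, thinned, from 500 UMIs, without Foxp3-positive cells and in T cell clusters.

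Over all genes, those past the fold numbered, from 500 UMIs, 133 of 532 in Cd8-identity Tdp, 149 of 450 in Cd4-identity Tdp, 29 of 233 between the Tdp classes, 445 of 1112 between the single classes, and 366 of 1250 and 582 of 1188 for Foxp3 in the Cd4 and Cd8 class, where the second number is that of the main setting. The hashtag comparisons (4 against 3, 2 against 3, 2 against 1 and 4 against 1, with 384, 259, 268 and 183) then had 61, 38, 30 and 9. From 20 UMIs they had 897, 630, 614 and 396, the Tdp classes 572 and the single classes 1717. Thinned, they had 115, 107, 110 and 101, Cd8-identity Tdp 304, Cd4-identity Tdp 246, the Tdp classes 80 and Foxp3 in the Cd8 class 447. In marker-free cells the first 3 hashtag comparisons had 107, 76 and 124, Cd8-identity Tdp 345 and Foxp3 in the Cd8 class 534. In T cell clusters they had 124, 80 and 155, with 294 and 607, and without cycling cells number 2 against 1 had 175. With matched Foxp3-zero cells Foxp3 in the Cd8 class had 248. At their own depth 89.3% of Itgae cells held Itgb7 (80.0% thinned) and 36.8% of Itga4 cells Itgb1 (23.2% thinned) in the Cd4 class.

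Of the other values, 279 for the main results kept their direction and size. Of those for single members, 1015 did, 101 moved and 2 turned.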
